A study of Oryza sativa with 4 samples.

Results

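The region described here was a 3.5 Mb stretch of rice chromosome 11, from 21 to 24.5 Mb of the IRGSP-1.0 genome. Its members were all annotated transcripts that start in this stretch, apart from those described as NB-ARC, NBS-LRR, RPP13, disease resistance or proteasome genes and a few single genes left out by name. The members numbered 217 transcripts of 190 genes, out of 37972 transcripts of 31414 genes in the table, and 22 further transcripts of 19 genes in the stretch were left out. The stretch was picked for its genes that were expressed in only one of the groups compared, so those values chose it and are given below as a description with no test.

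RNA-sequencing was performed on leaves of rice plants that overexpress OsNAC14 (OsNAC14OX) and of non-transgenic plants (NT), with 2 libraries in each group. OsNAC14OX plants carried the OsNAC14 coding sequence under PGD1, a promoter for constitutive expression, and NT plants carried no transgene. Both groups were grown in soil under normal conditions, and the libraries of OsNAC14OX came from 1 homozygous transgenic line. The study used the cultivar Nakdong for both groups, whereas a field of the labels names Nipponbare (spelled Nipponbre) for all 4 libraries, and the age is given once as 20 days and once as 2 weeks. The study calls its duplicates biological, but neither it nor the labels say which plants went into each library. The names of the NT libraries carry a year-like number that those of OsNAC14OX lack, and whether all libraries were made at the same time is not stated. A difference between OsNAC14OX and NT that comes with the transgenic line itself and one that comes with the transgene cannot be told apart in this design.

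The long arm of rice chromosome 11 is known for clusters of resistance genes, which encode intracellular immune receptors, and for receptor-like kinase genes between them. Such clusters arise by local duplication, and rice cultivars often differ in which copies they carry and express. The members described here are the other genes that lie among those clusters: enzymes, kinases, F-box proteins, housekeeping genes and many loci without a known product.

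Expression was given as FPKM, a fragment count scaled to transcript length and to the number of mapped fragments in the library. A transcript was called on in only OsNAC14OX when both OsNAC14OX libraries had an FPKM of at least 1 and both NT libraries were under 0.5, and on in only NT in the reverse case. It was called on in both groups with all 4 libraries at 1 or more, off in both with all 4 under 0.5, and intermediate otherwise. Differences between groups are OsNAC14OX minus NT on the quantile-normalized log2(FPKM + 1) scale, and folds are of FPKM + 1, which understates the change of transcripts at low levels.

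Summed over all transcripts, FPKM was 735318 and 748368 in the OsNAC14OX libraries, against 751619 and 765959 in the NT libraries. OsNAC14 itself (Os01t0675800-01, on chromosome 1) was at 16.4 and 16.3 FPKM in OsNAC14OX and at 3.16 and 3.70 in NT, which follows the labels. Light-harvesting protein transcripts, which mark leaf mesophyll, summed to 10767 and 13680 FPKM in OsNAC14OX and to 11059 and 10992 in NT. The 1 transcript described as a Rubisco small subunit was at 794 and 811 FPKM in OsNAC14OX, against 413 and 285 in NT. The members of the segment together had 2787 and 2837 FPKM in OsNAC14OX and 2752 and 2774 in NT, and 152 and 154 members reached an FPKM of 1 in the OsNAC14OX libraries, against 155 and 153 in the NT libraries. The segment as a whole therefore differed little in summed level or in the number of transcripts detected. In bulk leaf RNA, fewer cells of a type and less RNA per cell cannot be told apart.

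Within the segment, 6 members were on in only OsNAC14OX and 5 were on in only NT, 143 were on in both groups, 32 were intermediate and 31 were off in both. Over all annotated transcripts 177 of 37972, or 0.466%, were on in only one group, with 0.184% on in only OsNAC14OX and 0.282% on in only NT. With the same descriptions and genes left out everywhere, it was 167 of 37556, or 0.445%, and all shares by region or chromosome below are on that base. The share in the segment was 5.07%, against 1.19% (21 of 1771 transcripts) in the rest of chromosome 11. Because the segment was chosen by this share, nothing is read from the difference. The segment held 11 of the 32 such transcripts on the chromosome outside the families left out, or 34.4%, with 10.9% of the transcripts on that base. This came to 3.14 per Mb in the segment and 0.824 per Mb in the rest of the chromosome.

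**Figure D1:**
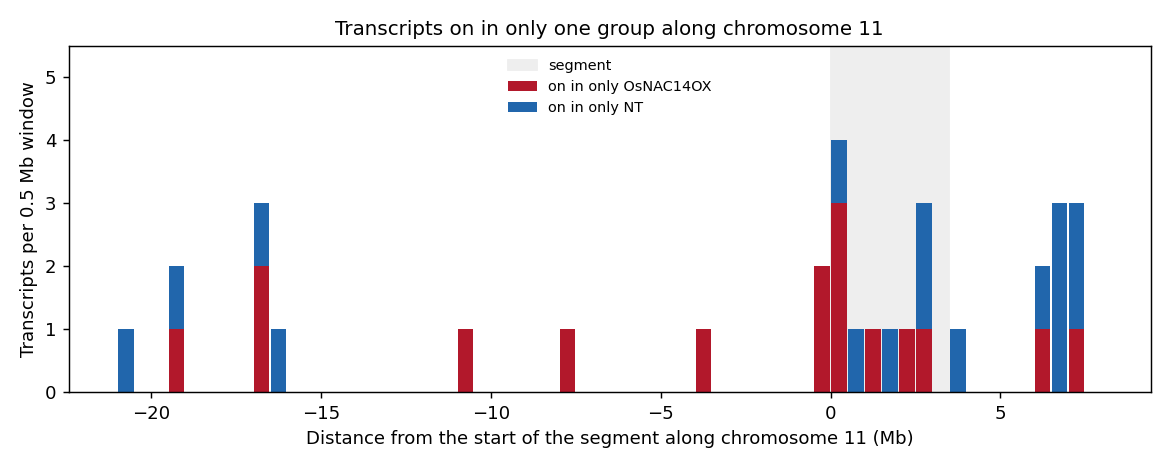
Transcripts on in only one group in windows of 0.5 Mb along chromosome 11, counted per window (y axis) against the distance in Mb from the start of the segment (x axis), with the segment shaded and the bars split by group. In the segment 6 of 7 windows held such a transcript, with up to 4 in a window, and in the rest of the chromosome 12 of 51 windows did, with up to 3.

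In the plot along the chromosome, the first window of the segment held the most such transcripts of any window, with 3 on in only OsNAC14OX and 1 on in only NT. By share it was not the highest, at 10.5% of its 38 transcripts. The window outside the segment that starts 7 Mb from the segment start was at 18.8% of 16. The last window of the segment held none. Similar transcripts also lay just outside the segment. Os11t0562100-02, described as similar to cycloartenol synthase, an enzyme of sterol synthesis, starts 53.6 kb before the segment and was at 30.4 and 33.5 FPKM in OsNAC14OX, against 0.0600 and 0.110 in NT. Os11t0554200-01, a conserved hypothetical gene that starts 383 kb before the segment, was at 5.46 and 5.76 FPKM in OsNAC14OX and at 0.0243 and 0.0158 in NT. On the distal side the nearest was Os11t0634350-01, a non-protein coding transcript 459 kb beyond the segment, at 0.218 and 0.396 FPKM in OsNAC14OX and at 2.87 and 3.12 in NT.

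The 11 members on in only one group fell into 2 runs and 5 single genes. A run is made of neighbouring genes that were each on in only one group, among the 142 genes of the segment with an FPKM of 1 or more in both libraries of a group. Each run held 3 genes, so that 6 of the 11 genes were in a run. The rest of chromosome 11 had 2 runs of 2 genes each among 1169 genes, and in neither were both genes on in the same group. Starts of successive members on in only one group lay 0.628 to 661 kb apart, with a median of 226 kb.

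The first run lay near the proximal end of the segment, and all of its genes were on in only OsNAC14OX. It began with Os11t0566800-01, on chromosome 11 from 21102794 to 21104582, described as similar to bibenzyl synthase, a polyketide synthase related to chalcone and stilbene synthases. It was at 1.89 and 2.47 FPKM in OsNAC14OX and at 0.0217 and 0.0284 in NT, a difference of 1.66 on the log2 scale. Inside that gene lies Os11t0567200-00, annotated as a hypothetical protein, from 21103422 to 21104298. Its level was 5.28 and 5.82 FPKM in OsNAC14OX, against 0.0387 and 0.0755 in NT, a log2 difference of 2.65 and the largest rise among the members. All 877 bases of it overlap the bibenzyl synthase-like gene, and the table gives no strand, so reads of the pair cannot be told apart and they may not be separate signals.

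The run ended with Os11t0567800-01, from 21156776 to 21159062, which encodes a protein with the N-terminal domain of leucine-rich repeat proteins, a domain found in many plant receptor-like proteins and receptor kinases. Its values were lower, at 1.22 and 1.35 FPKM in OsNAC14OX and 0.0532 and 0.0174 in NT (log2 difference 1.17). The starts of the 3 genes span 54.0 kb. The nearest members on in both groups were on either side of this run. Before it lies Os11t0565400-01, similar to a RING finger protein of the kind that often acts as a ubiquitin ligase, at 10.8 and 10.5 FPKM in OsNAC14OX and 5.27 and 4.83 in NT (log2 difference 0.97). After it lies Os11t0568300-01, with a cell division cycle-associated domain, at 5.75 and 5.47 FPKM in OsNAC14OX and 4.83 and 4.42 in NT (log2 difference 0.26). Both neighbours were thus also higher in each OsNAC14OX library than in each NT library, by less than the genes of the run. Groups without overlap, in either direction, were common, at 53.1% of the members on in both groups and 41.9% of all transcripts on in both.

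The second run was the tightest, with starts within 12.9 kb, and it mixed directions. Os11t0615600-01, a conserved hypothetical gene from 23934121 to 23935127, was on in only NT, at 0.0668 and 0.109 FPKM in OsNAC14OX and 6.60 and 7.29 in NT (log2 difference -2.85). Os11t0615750-00, a hypothetical gene from 23938499 to 23942192, had the lowest log2 difference in the segment. It was at 0.299 and 0.270 FPKM in OsNAC14OX, against 10.5 and 9.70 in NT (log2 difference -3.08, or 0.118-fold). With a pseudocount of 0.1 in place of 1 the order of these neighbours turned, with a log2 difference of -4.73 for Os11t0615750-00 and -5.24 for Os11t0615600-01. Os11t0615900-01, another conserved hypothetical gene, from 23947040 to 23949310, was on in only OsNAC14OX, with 4.93 and 4.56 FPKM in OsNAC14OX and 0.0518 and 0.0422 in NT (log2 difference 2.48, or 5.57-fold). These 12.9 kb thus held members that were nearly silent in OsNAC14OX and a member that was nearly silent in NT. They are next to each other only among the members, since genes left out by the rule lie between them. By its locus number, Os11g0615800, which the study names OsRAD51A1, falls between Os11t0615750-00 and Os11t0615900-01.

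Os11t0615750-00 lies within Os11g0615700, the gene of a proteasome alpha subunit that the rule leaves out, and all 3694 bases of its locus overlap it. One transcript of that gene, Os11t0615700-01, was at 15.8 and 14.1 FPKM in OsNAC14OX and under 0.0001 in both NT libraries, and the other, Os11t0615700-02, was at 70.3 and 79.5 in OsNAC14OX and 42.5 and 37.4 in NT. The hypothetical gene and its host therefore had opposite directions at the same locus. The sources used here do not say how reads were divided between them, and its part in these values was not tested. The members on in both groups on either side of the run differed little. They were Os11t0615300-00, at 1.22 and 1.94 FPKM in OsNAC14OX and 1.87 and 1.96 in NT, and Os11t0616200-01, at 6.58 and 7.22 in OsNAC14OX and 7.28 and 7.29 in NT, both conserved hypothetical genes.

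**Figure D2:**
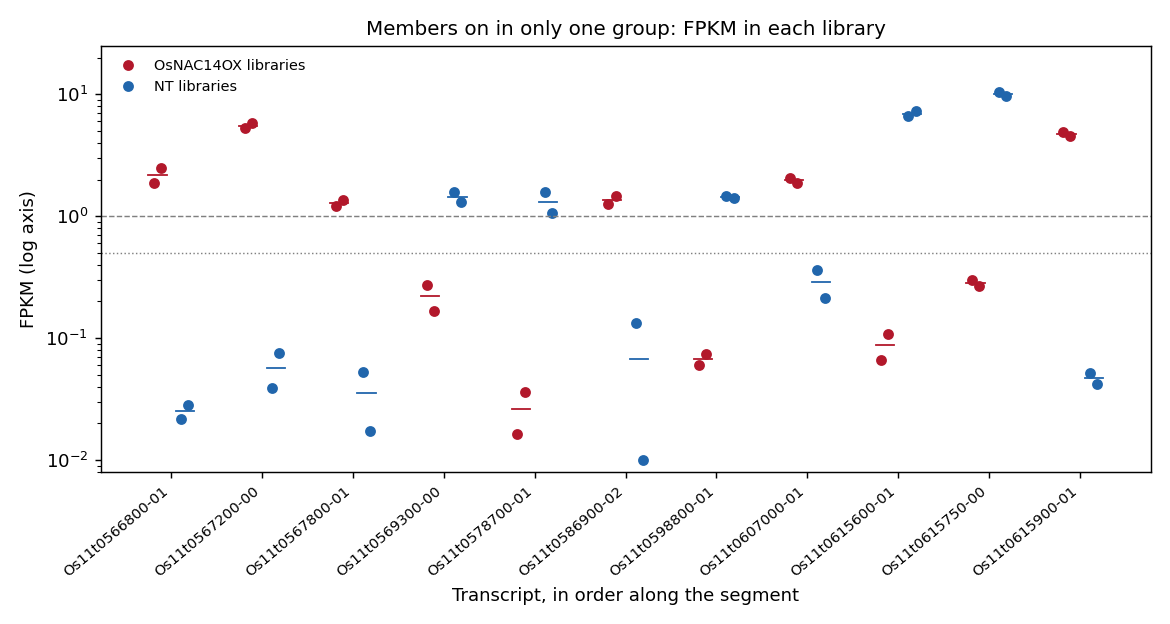
FPKM on a log axis for the 11 members on in only one group, in order along the segment, with 1 point per library and a bar at the mean of each group (OsNAC14OX left, NT right). The dashed line is the level of 1 and the dotted line that of 0.5, and 1 NT value below 0.01 (Os11t0586900-02) is drawn at 0.01. The highest levels were the 10.5 and 9.70 FPKM of Os11t0615750-00 in NT.

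The other 5 members on in only one group stood alone, and 3 of them were on in only NT. Os11t0569300-00 (21243403 to 21246824) carries a serine/threonine protein kinase domain, the catalytic domain of enzymes that phosphorylate other proteins. It was at 0.273 and 0.169 FPKM in OsNAC14OX and 1.58 and 1.30 in NT (log2 difference -0.97), so that it was still detected in OsNAC14OX. Os11t0578700-01 (21850235 to 21852086) is similar to F-box proteins, which select substrates for ubiquitin ligases of the SCF type. Its level was 0.0165 and 0.0360 FPKM in OsNAC14OX and 1.57 and 1.06 in NT (log2 difference -1.15). Os11t0598800-01 (22876403 to 22884442) has a tetratricopeptide-like helical domain, a repeat that mediates contacts between proteins, and was at 0.0600 and 0.0749 FPKM in OsNAC14OX and 1.45 and 1.42 in NT (log2 difference -1.17). All 3 were close to the threshold of 1 FPKM in NT.

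The remaining pair was on in only OsNAC14OX. Os11t0607000-01 (23421851 to 23426690), a hypothetical gene, was at 2.06 and 1.89 FPKM in OsNAC14OX and 0.366 and 0.215 in NT (log2 difference 1.24). It overlaps by 1326 bases an NB-ARC gene, Os11t0606900-00, that was left out by the rule and was off in both groups. Os11t0586900-02 (22215879 to 22219119), a transcript similar to ADP-ribosylation factor-like protein 5, a small GTPase of membrane traffic, was at 1.26 and 1.46 FPKM in OsNAC14OX and at 0.134 and 2.2e-06 in NT (log2 difference 1.17).

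That last case concerned a minor transcript and not its gene. The other transcript, Os11t0586900-01, was at 38.6 and 42.2 FPKM in OsNAC14OX and 32.4 and 30.0 in NT, and the minor one made up 3.26% of the gene's FPKM in OsNAC14OX. Summed over transcripts, the gene was on in both groups, at 39.8 and 43.6 FPKM in OsNAC14OX and 32.6 and 30.0 in NT. Each of the other 10 genes has a single annotated transcript, so the gene and the transcript had the same state there.

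The members nearest to the thresholds show how far the set depends on them. Just inside on the OsNAC14OX side were Os11t0567800-01, Os11t0586900-02 and Os11t0607000-01, and just outside was Os11t0575600-01, similar to lipoxygenase, an enzyme of oxylipin synthesis, at 1.48 and 0.809 FPKM in OsNAC14OX and 0.478 and 0.381 in NT. Further outside were Os11t0572100-01, a DNA ligase-like transcript at 0.774 and 0.853 in OsNAC14OX and 0.372 and 0.497 in NT, and Os11t0595100-01, of the uncharacterized DUF295 family, at 0.813 and 0.709 in OsNAC14OX and 0.398 and 0.623 in NT. Just inside on the NT side were Os11t0578700-01, Os11t0569300-00 and Os11t0598800-01. Outside it were Os11t0582801-00 at 0.375 and 0.522 FPKM in OsNAC14OX and 0.730 and 1.12 in NT, Os11t0621200-00 at 0.0384 and 0.0415 in OsNAC14OX and 1.01 and 0.723 in NT, and Os11t0616900-02 at 0.358 and 0.698 in OsNAC14OX and 1.19 and 0.907 in NT. Both Os11t0582801-00 and Os11t0616900-02 are annotated as hypothetical, and Os11t0621200-00 has no assigned function.

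With off set under 0.1 FPKM, 6 of the 11 members remained, and with on set at 2 FPKM or more, 4 remained. These 4 were Os11t0567200-00 of the first run and all of the second run. The second run was thus broken up with off under 0.1 and the first run with on at 2 or more, so that 1 run of 3 genes was left in each case, by thresholds applied to the runs after the data were seen. Leaving out a library can only loosen the rule, so all 11 members were bound to be kept, and the count became 11 to 13. A transcript that met the rule only without an NT library was Os11t0588300-02, a minor transcript of a glutathione transferase gene, at 0.00105 and 0.00236 FPKM in OsNAC14OX and at 8.36 and 0.0126 in NT, so that a single NT library held all of its signal. The main transcript of this detoxification enzyme, Os11t0588300-01, was at 43.0 and 47.9 FPKM in OsNAC14OX and 40.3 and 44.6 in NT.

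Most of the members on in only one group were expressed at low levels: the mean FPKM of the higher group ran from 1.28 to 10.1 with a median of 1.98, against a median of 9.89 for members on in both groups. Their median annotated length was 1852 bases, against 1531 for members on in both and 2117 for members off in both. Overlap with another gene was found for 4 of the 11 (36.4%), against 31 of the 143 members on in both (21.7%) and 50 of all 217 members (23.0%). Several annotated transcripts were given for the gene of 1 of the 11 and for the genes of 40 of the 143 (28.0%).

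limma was fitted on the 30251 transcripts that reached 1 FPKM in 2 or more libraries, and a call required a 2-fold difference and an adjusted p below 0.05. It called 168 transcripts (0.555%), with 0.251% of those tested higher and 0.304% lower in OsNAC14OX. Of the 217 members, 158 passed the filter, and 6 were called (3.80%), against 24 of 1335 (1.80%) in the rest of chromosome 11. Higher in OsNAC14OX were Os11t0566800-01, Os11t0567200-00 and Os11t0615900-01, and lower were Os11t0615600-01, Os11t0615750-00 and Os11t0597700-01. All but the last were members on in only one group, and 4 of the 6 had no described function. The contrast is the one that chose the segment, so these calls are no separate evidence about it. They also depended on single libraries. The number called changed with each library left out, over all transcripts as well as among the members. Such a fit leaves 1 library in a group, so its counts are not given.

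Members on in both groups made up 65.9% of the segment, against 68.4% in the rest of chromosome 11. Their median log2 difference was 0.05, with quartiles of -0.12 and 0.26, against a median of -0.01 with quartiles of -0.14 and 0.12 in the rest of the chromosome. A fold of at least 2 was seen for 5 members higher and 2 lower in OsNAC14OX (4.90%), against 13 higher and 18 lower (2.56%) in the rest of chromosome 11 and 1.41% over all transcripts on in both groups. The replicates, which the rule did not compare with each other, differed by a median of 0.17 in OsNAC14OX and 0.10 in NT, against 0.18 and 0.11 in the rest of the chromosome. The spread between replicates in the segment was thus close to that of its surroundings.

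**Figure D3:**
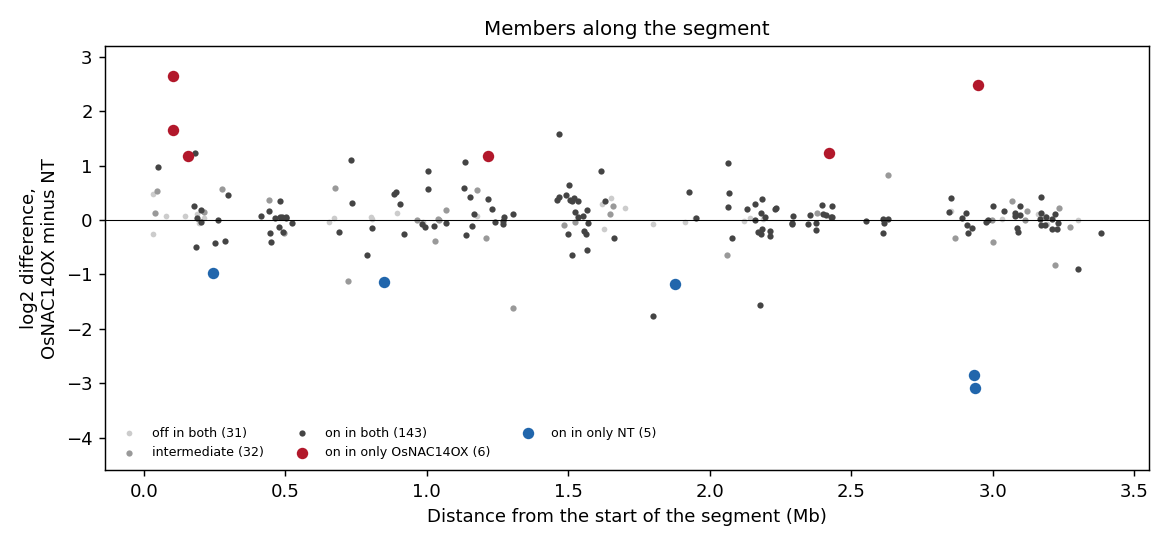
Log2 difference of each of the 217 members, OsNAC14OX minus NT (y axis), against the distance in Mb from the start of the segment (x axis), with 1 point per transcript coloured by its state. Members on in only one group run from -3.08 to 2.65, and most of the 143 members on in both groups lie near 0, with quartiles of -0.12 and 0.26.

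Of the members on in both groups, Os11t0597700-01 had the largest fall. It is described as similar to a resistant protein and was at 1.39 and 1.61 FPKM in OsNAC14OX, against 8.34 and 7.11 in NT (log2 difference -1.76). The description does not contain the words that the rule leaves out, and all 2776 bases of its locus overlap Os11t0597601-01, a hypothetical conserved gene at 0.257 and 0.308 FPKM in OsNAC14OX and 0.378 and 0.361 in NT. Next was Os11t0602400-01, with the catalytic domain of tRNA intron endonucleases, the enzymes that cut introns out of precursor tRNAs. It was at 1.56 and 2.65 FPKM in OsNAC14OX and 8.18 and 8.45 in NT (log2 difference -1.57). The groups did not overlap for either gene, and only the first was called.

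The largest positive difference among members on in both was that of Os11t0591200-01, similar to 3-ketoacyl-CoA synthase, the condensing enzyme of very-long-chain fatty acid elongation for waxes and membrane lipids. It was at 6.97 and 5.29 FPKM in OsNAC14OX and 1.49 and 1.33 in NT (log2 difference 1.59). The locus overlaps Os11t0591300-00, a hypothetical gene at 30.7 and 28.7 FPKM in OsNAC14OX and 21.2 and 23.6 in NT, by 2611 bases. Os11t0568401-00, a non-protein coding transcript, was at 6.76 and 6.54 FPKM in OsNAC14OX and 2.26 and 2.39 in NT (log2 difference 1.23). It overlaps by 753 bases the cell division cycle-associated gene beside the first run. Neither of these was called by limma.

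Os11t0576900-01, similar to proteins with the HAT dimerisation domain, which is typical of hAT transposases and of genes derived from them, was at 6.75 and 6.85 FPKM in OsNAC14OX and 2.82 and 2.56 in NT (log2 difference 1.10). Os11t0576400-00, with the same description and starting shortly before it, was singled out after its values were seen. It went the other way, at 0.922 and 0.912 FPKM in OsNAC14OX and 3.18 and 3.38 in NT (log2 difference -1.13), and neither was called. How alike the sequences of this pair are was not examined, so whether reads were shared between them is unknown. Of the other members with large differences, the RING finger gene was described above and a pair is hypothetical. Os11t0585200-01 was at 11.1 and 6.98 FPKM in OsNAC14OX and 3.87 and 3.68 in NT (log2 difference 1.06), and Os11t0600600-01 was at 5.45 and 6.73 in OsNAC14OX and 2.14 and 2.83 in NT (log2 difference 1.05).

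**Figure D4:**
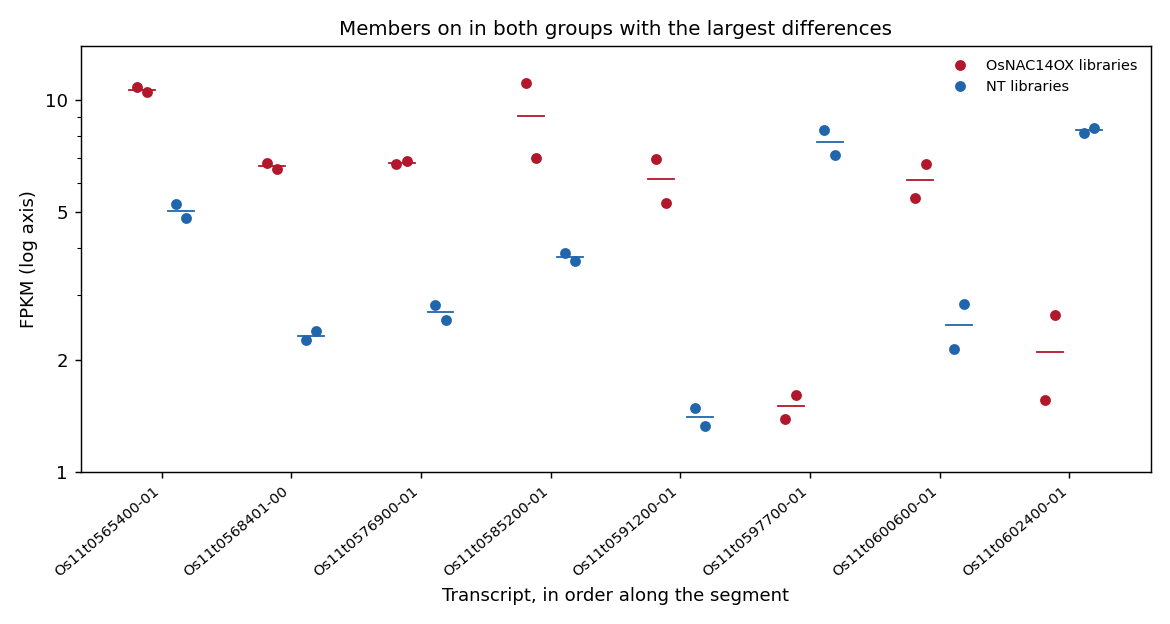
FPKM on a log axis for the 8 members on in both groups with the largest log2 differences, in order along the segment, with 1 point per library and a bar at the mean of each group (OsNAC14OX left, NT right). The 8 were picked by size, so that their groups do not overlap, which held for 53.1% of the members on in both groups and 41.9% of all transcripts on in both, and 6 were higher and 2 lower in OsNAC14OX.

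Neighbours of the members on in only one group were taken only from the members on in both groups, so genes left out by the rule were not counted. The nearest members on in both groups on either side came to 14 transcripts, with absolute log2 differences of 0.04 to 1.76 and a median of 0.23, against a median of 0.19 over all 143. Of these, 11 differed by less than 0.5. The 11 include Os11t0586900-01 (log2 difference 0.38), which is a transcript of the same gene as Os11t0586900-02 and not of a neighbouring gene. Beside the kinase gene Os11t0569300-00, for example, lie Os11t0568700-02, with a START-like lipid-binding domain, at 23.2 and 26.2 FPKM in OsNAC14OX and 26.3 and 25.3 in NT, and Os11t0569500-01, a receptor kinase-like gene at 2.44 and 3.38 in OsNAC14OX and 4.47 and 4.16 in NT. The largest difference was that of Os11t0597700-01, 77.1 kb before Os11t0598800-01.

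The most highly expressed members were hypothetical genes that lie inside other genes. Os11t0602701-00 was at 245 and 263 FPKM in OsNAC14OX and 205 and 210 in NT (log2 difference 0.38), and lies with 1370 bases within Os11t0602600-01. This host gene is similar to ribosomal protein S9 of the small subunit and was at 69.0 and 71.4 FPKM in OsNAC14OX and 79.2 and 82.6 in NT (log2 difference -0.16). Os11t0602550-00 was at 179 in both OsNAC14OX libraries and at 226 and 228 in NT (log2 difference -0.27), and lies with 1468 bases within Os11t0602500-00, a second S9-like gene. That second gene was at 37.4 and 35.2 FPKM in OsNAC14OX and 31.2 and 35.6 in NT (log2 difference 0.14).

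The groups overlapped for that second gene, and all 4 genes of these nested pairs differed by less than a fold of 2. Os11t0620150-01 was at 143 and 147 FPKM in OsNAC14OX and 147 and 130 in NT (log2 difference 0.14), with overlapping groups. It lies within Os11g0620100, whose transcript Os11t0620100-01 encodes an oligouridylate binding protein, an RNA-binding protein, at 3.12 and 2.76 FPKM in OsNAC14OX and 2.00 and 2.02 in NT. Another transcript of that gene, Os11t0620100-03, had more FPKM, at 19.9 and 20.7 in OsNAC14OX and 20.3 and 23.9 in NT (log2 difference -0.09). Os11t0591100-01, with an NAD(P)-binding domain found in many oxidoreductases, was at 79.5 and 87.8 FPKM in OsNAC14OX and 71.3 and 60.8 in NT (log2 difference 0.38).

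Os11t0592100-01, similar to barwin, a wound-related protein that binds chitin or related sugars, was at 77.6 and 83.1 FPKM in OsNAC14OX and 59.5 and 68.8 in NT (log2 difference 0.36). It belongs to a small cluster from 22498563 to 22512374, whose other members were looked at after their values were seen. Os11t0591800-01 was at 3.79 and 5.15 FPKM in OsNAC14OX and 6.03 and 5.19 in NT, and Os11t0592000-01 was at 34.9 and 42.3 in OsNAC14OX and 20.5 and 29.8 in NT. Os11t0592200-01, similar to a chitin-binding allergen, was at 47.0 and 43.7 FPKM in OsNAC14OX and 69.2 and 78.1 in NT (log2 difference -0.64). The 4 members of the cluster differed in both directions, and none was called.

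The first and last members by position were hypothetical genes and were in the same state in both groups. Os11t0564800-01, the first, starts at 21031038 and was off in both groups, at 0.121 and 0.128 FPKM in OsNAC14OX and 0.425 and 0.269 in NT. Os11t0623700-01, the last, starts at 24382955 and was at 3.91 and 4.39 FPKM in OsNAC14OX and 4.70 and 5.76 in NT (log2 difference -0.24).

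Grouped by the words of their descriptions, 142 of the 217 members fell into at least 1 of 12 lists, beside which the median log2 difference over all transcripts of the table was 0.00. The largest list was that of uncharacterized genes, with 75 transcripts of 70 genes. Of these, 3 were on in only OsNAC14OX, 2 were on in only NT, 39 were on in both, 17 were intermediate and 14 were off in both. The median log2 difference of the list was 0.03, and 2 of its members were called higher and 2 lower in OsNAC14OX. Of the uncharacterized transcripts of all chromosomes, 0.558% were on in only one group.

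The list of descriptions with the word kinase, mostly enzymes that pass on signals by phosphorylation, numbered 13 transcripts, of which 8 were on in both groups, 1 was on in only NT, 2 were intermediate and 2 were off, with a median log2 difference of -0.02. It also holds Os11t0614800-00, an inhibitor of cyclin-dependent kinases and not a kinase, which is 1 of the 2 intermediate ones. The receptor kinase-like genes that follow Os11t0569300-00 were expressed in both groups, such as Os11t0570000-01 at 10.5 and 5.65 FPKM in OsNAC14OX and 5.72 and 5.22 in NT. Leucine-rich repeat genes outside the families left out numbered 8, of which 4 were off in both groups, 2 were intermediate and 1 each was on in only OsNAC14OX and in both. Their log2 differences ran from 0.03 to 1.17 with a median of 0.20, the groups overlapped for 4 of the 8, and 2 of them passed the filter on low values. Over all members 59.0% had a difference above 0, and the groups overlapped for 44.2%.

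F-box genes, which give ubiquitin ligases their substrates, had 7 transcripts, with 4 on in both, 1 on in only NT and 2 intermediate (median log2 difference -0.06). The ubiquitin system list, found by words such as RING, had 12 transcripts, 11 on in both and 1 intermediate, with a median of 0.04. One of them, Os11t0621500-01, is similar to the clock gene EARLY FLOWERING 4 and is listed only for the letters of its name. The list of transcription factor and zinc finger descriptions had 7 transcripts, of which 6 were on in both groups and 1 was off, with a median of -0.06 and a range from -0.23 to 0.19. Of these, 5 are zinc fingers of the RING kind that the ubiquitin list also holds, and a plain DNA-binding factor is Os11t0601700-01, with a helix-loop-helix domain, at 12.8 and 7.95 FPKM in OsNAC14OX and 8.99 and 8.81 in NT. None of the members of these 3 lists was called by limma.

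Lists of metabolic and housekeeping genes held no member on in only one group. Over all chromosomes such transcripts made up only 0.0791% (translation and RNA) to 0.237% (redox and P450) of these lists, so nothing is read from this. The bibenzyl synthase-like transcript of the first run, also of an enzyme, is in none of the lists. Translation and RNA genes, such as those for ribosomal and pentatricopeptide repeat proteins, had 10 transcripts, all on in both groups, with a median log2 difference of 0.05 and a range from -1.57 (the tRNA intron endonuclease gene) to 0.52. Redox and P450 genes had 7 transcripts, 6 on in both, with a median of 0.06. Transporters had 6 transcripts, 4 on in both and 2 off, with a median of 0.07. Cell wall and glycosyl enzymes had 2 transcripts, 1 on in both and 1 off. No member carried the words of the transposon-related list, or those of the list of lectins and wall-associated proteins. The pair with the HAT dimerisation domain, described above, lacks those words and is not in the transposon-related list.

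**Figure D5:**
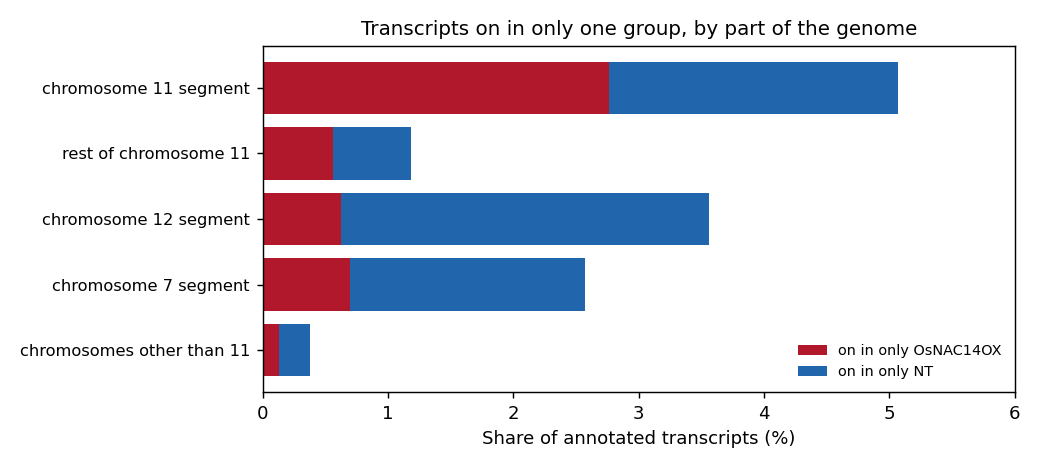
Share of annotated transcripts that were on in only one group (x axis, percent), with bars split into on in only OsNAC14OX and on in only NT, for the chromosome 11 segment, the rest of chromosome 11, chromosome 12 from 5 to 17 Mb, chromosome 7 from 17 to 22 Mb, and all chromosomes other than 11 (with both of those segments), all outside the families left out. The shares were 5.07%, 1.19%, 3.56%, 2.57% and 0.380%.

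The bars by part of the genome set the segment beside 2 other stretches that also hold many such transcripts. On chromosome 12, from 5 to 17 Mb, 17 of 477 transcripts were on in only one group, 3 of them in OsNAC14OX and 14 in NT. On chromosome 7, from 17 to 22 Mb, 11 of 428 were, 3 in OsNAC14OX and 8 in NT. The chromosome 11 segment had 6 in OsNAC14OX and 5 in NT, and this difference in balance was not tested. By chromosome, outside the families left out, the share was 1.61% on chromosome 11, 1.24% on chromosome 12, 1.01% on chromosome 7 and 0.0681% on chromosome 2, the lowest. With those families, it was 1.86% (39 of 2102 transcripts) on chromosome 11 and 1.22% on chromosome 12.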

How the data were processed

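Leaf RNA of 2 OsNAC14OX and 2 NT samples was sequenced, and groups were taken from the sample labels. The authors deposited 1 table with FPKM per annotated transcript and with quantile-normalized log2(FPKM + 1) values. The submitters' processing notes name IRGSP-1.0, the genome of the cultivar Nipponbare. No source used here names the tool that gave FPKM. FPKM is not a count, so the depth of each library is unknown and no counting interval was computed. The labels call the libraries strand-specific, while the study's methods name a TruSeq RNA kit that does not mark strand, so overlapping genes are treated as not separable. The table holds 4 columns of libraries outside the series, which were not used, although the quantile normalization included those libraries. Columns and further tables with the authors' own fold changes, p-values, called genes and enrichment results were not used. Starts in the table count from 0 and are printed counting from 1.

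The members, lists and tests were chosen with earlier results of these data known. Named are all members on in only one group, other members called, the 8 members on in both with the largest differences, the 6 with the highest mean FPKM, the 3 nearest to the thresholds on each side and direction, and the first and last member. Others are said to be chosen after their values were seen, or are neighbours or overlapping genes. limma 3.58.1 (R 4.3.3; lmFit and eBayes with a trend, two-sided, Benjamini-Hochberg over 30251 transcripts) was run on the deposited log2 values without a covariate, after it was tested on simulated data. Tables were made with Python 3.11.15, pandas 2.3.3 and numpy 2.4.6. Alternatives changed the thresholds, the filter, the pseudocount, the normalization, the trend, the replicate block, the unit (gene or transcript), the exclusions and each library in turn. A planned promoter motif count was not made, since no sequence was used here.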

Additional observations from a re-analysis of the deposited data

How the results depend on the processing

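Of the 11 members on in only one group, 6 were left with off under 0.1 FPKM, 4 with on at 2 or more and 5 with off under 1 and on at 2 or more, where Os11t0576400-00 came in. Leaving out each library in turn, which can only add transcripts, gave 11 to 13. Sums per gene gave 10, quantile-normalized values 11 and no exclusions 14. In the rest of chromosome 11 the 21 became 6 with off under 0.1 and 12 with on at 2 or more, and 26 to 32 without single libraries, the 32 being without OsNAC14OX replicate 2. The 2 runs became 1 with off under 1 and on at 2 or more and, in alternatives added after seeing the data, 1 with off under 0.1 and 1 with on at 2 or more. They numbered 2 with sums per gene, no exclusions, all genes in the order (with 5 genes in them in place of 6) and each library left out. Without exclusions the second run was not made of the same genes. Os11g0615700, with a transcript on in only OsNAC14OX, then enters the order there, yet the longest run stayed at 3 genes. The 6 members called by limma (168 of 30251 in all) became 3 with a filter of 5 FPKM (112 of 20032 in all). The number was 10 without the trend (191 of 30251) and 10 with sums per gene (187 of 25811). Without adjustment of p, and with both cut-offs kept, 18 members passed (469 of 30251). The number called also changed with each library left out, where the lone library of a group is assumed to vary like the other group. The cause of these shifts was not tested. Pseudocounts of 0.1 and 0.5 each gave the same 6 members (159 and 169 calls in all). No filter also gave 6, but only 4 of them were among the first 6 (109 of 37972 in all). No quantile normalization gave 5 (169 in all). With the replicate block limma called 0 members and 0 of all transcripts, with 18 members at an unadjusted p under 0.05 and a fold of 2. The labels do not tie the replicate numbers, and deviations of replicate 1 correlated with r = 0.0037 across 30251 transcripts. This value shows no broad shared shift, but it cannot tell whether replicates with the same number were handled together. For the 33 named members, none of 231 log2 differences (without quantile normalization, with both pseudocounts and without single libraries) changed sign. Few could, since among these members the groups overlapped only for Os11t0620150-01. Where groups do not overlap, leaving out a library or changing the pseudocount keeps the sign. Of the 231, 47 moved by more than the replicate SD. With a pseudocount of 0.1, for example, Os11t0566800-01 had 4.18 in place of 1.66 and Os11t0567800-01 had 3.37 in place of 1.17. Without counts, the error of low FPKM values is unknown.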
